A study of Homo sapiens with 3 samples.

Results

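The genes that license replication origins, copy the DNA and bring cells into S phase were followed across 3 expression arrays of HCT-116, a human colorectal cancer cell line. The set held 42 genes in 8 role groups, chosen by symbol from their known roles, with earlier results of these data known. Its counts beside the shares of all genes are therefore a description. All 42 had a usable probe set among the 12321 genes measured. Stearoyl-CoA desaturase 1 (SCD1) is the enzyme that turns saturated into monounsaturated fatty acids. The study screened compounds in combination with an SCD1 inhibitor, and also measured gene expression after inhibition or loss of SCD1. The arrays came from SCD1-WT cells treated with T-3764518, a small-molecule inhibitor of SCD1, from SCD1-KO cells, and from SCD1-WT cells treated with DMSO, the vehicle, with 1 array each. By the study's methods the dose was 100 nM, every treatment lasted 24 h and the SCD1-KO cells also received DMSO; the labels give the time for the SCD1-WT cells alone and no dose. SCD1-KO cells were made with CRISPR-Cas9 and a pair of guides, and clones were picked by PCR, so the knockout cannot be told apart from other features of the line that was grown from it.

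Origins are licensed in G1, when the origin recognition complex with CDC6 and CDT1 loads the MCM2-7 helicase onto DNA as an inactive ring. At S-phase entry CDC45 and the GINS complex join that ring, MCM10 helps to start it, and the polymerases, the sliding clamp PCNA and the enzymes that make deoxynucleotides follow. E2F transcription factors, which cyclin E-CDK2 helps to release from the RB protein, switch on many of these genes at the G1/S boundary.

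The deposited values are array signals on a linear scale. A gene's ratio is the median log2 ratio of its probe sets, each kept if its mean log2 signal over the 3 arrays was in the upper part of the probe sets, split at their median signal of 56.6. With 1 array per condition no test was possible, so a gene was counted as higher or lower at 2-fold, and the counts describe these arrays and not the conditions. The disagreement between probe sets of 1 gene gave a measure of error within an array pair. Its SD on the log2 scale was 0.57 for T-3764518 and 0.60 for SCD1-KO in the dimmest quintile of genes, and 0.26 and 0.25 in the brightest. Of the members, 12 lay in the brightest quintile and 17 in the next, and the 24 members with several kept probe sets had an SD of 0.41 for T-3764518 and 0.22 for SCD1-KO. SCD, which encodes SCD1, was 7.0-fold higher under T-3764518 and 2.23-fold higher in the SCD1-KO cells as the median of 4 probe sets. All 4 were above DMSO on both arrays but differed in size. The brightest had 39350 under T-3764518 and 24119 in the SCD1-KO cells, against 23841 with DMSO. The guide sites are not mapped to these probe sets here, so the signal is no check of the label. The study itself reported a deletion by genome sequencing and no SCD1 protein by western blot in the SCD1-KO cells. The arrays had the same trimmed mean (500.1) but median signals of 56.7 under T-3764518, 62.4 in the SCD1-KO cells and 68.8 with DMSO. The 3'/5' signal ratio of ACTB, a mark of RNA integrity, was 1.36 under T-3764518, 1.54 in the SCD1-KO cells and 1.30 with DMSO, and its part in the results was not tested. All 6 colorectal epithelial markers were above the filter level on each array, against 2 of 5 fibroblast markers and 2 of the 4 blood cell markers on the arrays, although EPCAM and CDH1 had log2 ratios of -1.30 and -1.48 in the SCD1-KO cells.

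Treatment with T-3764518 went with lower signals across most of the set. At least 2-fold lower signals were found for 12 of the 42 members, against 3.3% of all genes tested, and at least 2-fold higher signals for 0 members, against 2.18% of all genes. The 12 were MCM2, MCM4, MCM5, MCM10, CDC45, GINS2, GINS4, RFC2, TK1, CCNE2, E2F1 and E2F2. Ratios lay below 0 for 37 members, against 59.0% of all genes, and at least 1.5-fold below for 28, against 12.3%. The median log2 ratio was -0.80, against -0.09 for all genes. In SCD1-KO cells only ORC1 and PRIM1 were at least 2-fold lower, 2 of 42 against 3.93% of all genes, which is near that background, and 0 were at least 2-fold higher, against 3.12%. The SCD1-KO median was -0.32, against -0.01 for all genes, with 31 members below 0, against 51.1% of all genes. At 1.5-fold 9 members were lower in the SCD1-KO cells, against 11.4% of all genes, and 1 was higher, against 9.95%. When arrays were set to the same median signal, 6 members were at least 2-fold lower under T-3764518 (1.32% of all genes) and 0 in SCD1-KO (2.96%). The members' medians then were -0.52 and -0.18, against 0.19 and 0.13 for all genes. Because all cells of a culture are pooled on an array, fewer cells in S phase and less mRNA per cell cannot be told apart. Both ratios use the same DMSO array, so a likeness between them is not independent.

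**Figure D1:**
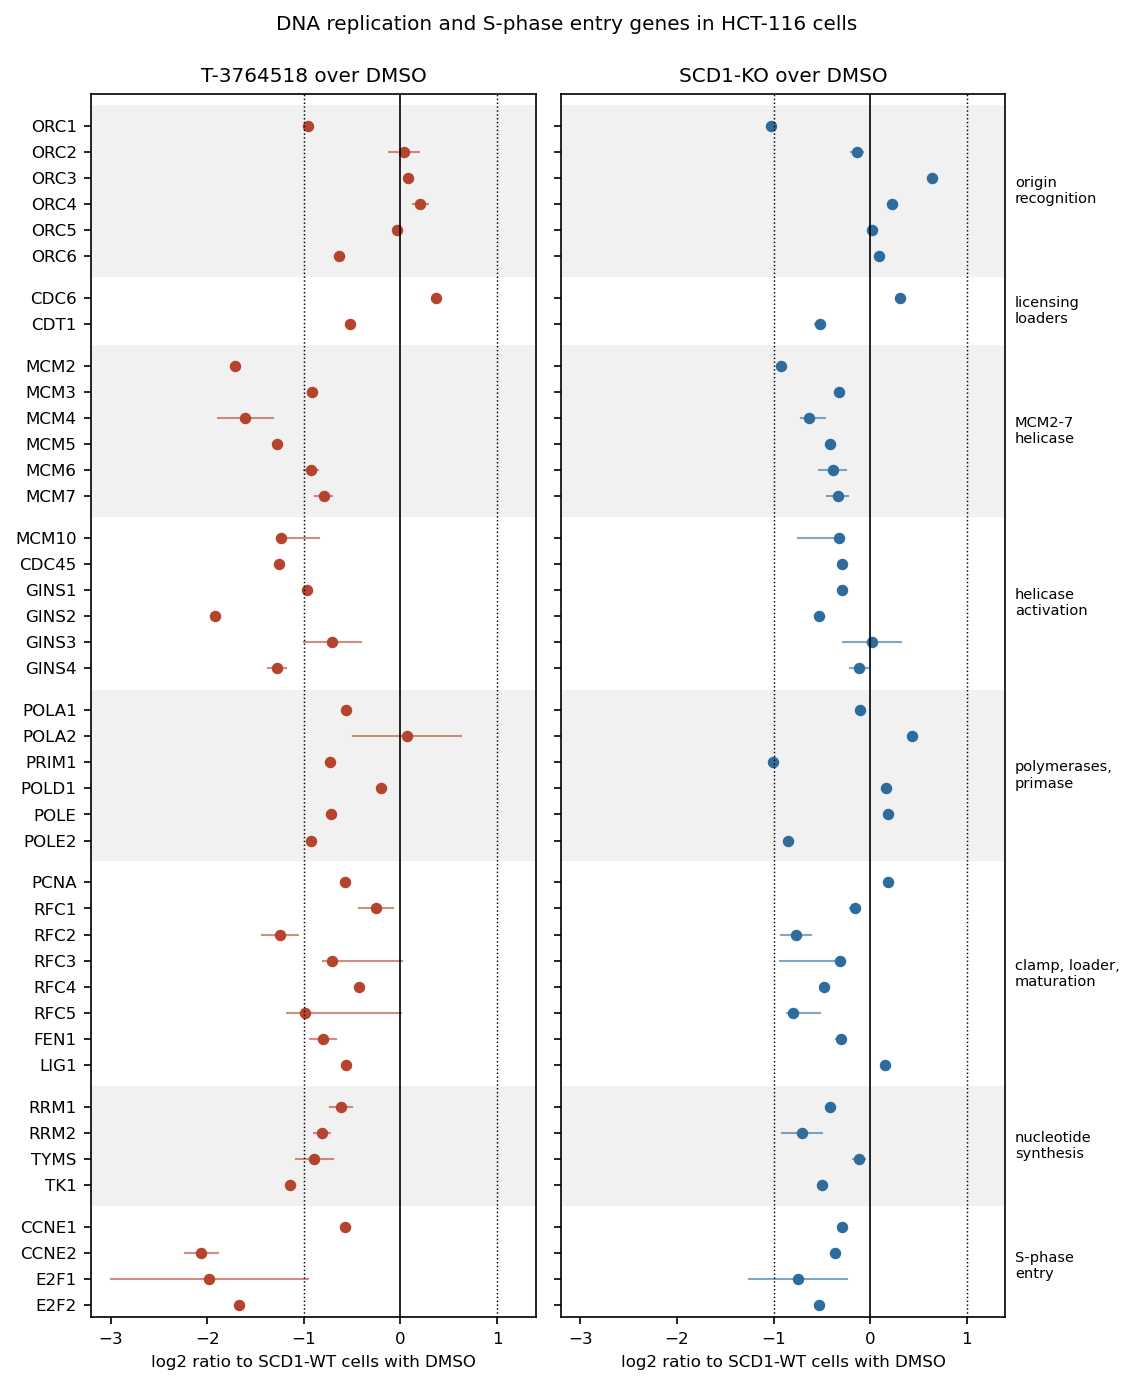
Log2 ratio of each of the 42 members to SCD1-WT cells treated with DMSO, under T-3764518 (red) and in the SCD1-KO cells (blue), by role group. Thin lines span the kept probe sets of a gene and dotted lines mark 2-fold; the T-3764518 values of the MCM, helicase activation and S-phase entry genes lie farthest below 0.

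Many member promoters held a sequence feature that the choice of genes did not use. In the RefSeq window of GRCh38.p14, 250 bases before the gene start and 50 after it, 38 of the 42 members had an entry; MCM4, MCM5, GINS4 and CCNE2 did not. The E2F motif was searched as TTTCCCGC, TTTCGCGC, TTTGCCGC or TTTGGCGC on both strands, with overlapping matches counted separately. It was found in 20 of 38 members (52.6%), in 5.34% of the tested genes that have a promoter entry and in 3.33% of all promoters in the table. The bases before the start of 8 members are shown 5' to 3' with E2F matches in capitals. Of these, 4 had a match and were lower on both perturbed arrays (E2F1, E2F2, GINS2, MCM6). A pair had no match and was at least 2-fold lower under T-3764518 (TK1, CDC45). The last pair are origin recognition genes with and without a match (ORC3, ORC5).
E2F1 (chr20:33686386-33686485, minus strand): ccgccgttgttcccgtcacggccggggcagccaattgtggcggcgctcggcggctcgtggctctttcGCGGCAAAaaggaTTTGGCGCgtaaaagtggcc
E2F2 (chr1:23531234-23531333, minus strand): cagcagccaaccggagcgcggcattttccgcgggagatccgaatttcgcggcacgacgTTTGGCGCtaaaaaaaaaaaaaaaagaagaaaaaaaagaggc
GINS2 (chr16:85688955-85689054, minus strand): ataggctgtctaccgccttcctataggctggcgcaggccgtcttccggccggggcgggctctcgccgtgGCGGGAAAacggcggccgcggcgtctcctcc
MCM6 (chr2:135876444-135876603, minus strand): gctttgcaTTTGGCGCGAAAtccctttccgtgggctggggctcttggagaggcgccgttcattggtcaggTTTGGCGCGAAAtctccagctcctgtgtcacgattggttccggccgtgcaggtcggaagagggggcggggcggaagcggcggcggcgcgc
TK1 (chr17:78187205-78187304, minus strand): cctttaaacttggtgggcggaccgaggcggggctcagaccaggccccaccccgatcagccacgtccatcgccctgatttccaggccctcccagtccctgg
CDC45 (chr22:19479820-19479919, plus strand): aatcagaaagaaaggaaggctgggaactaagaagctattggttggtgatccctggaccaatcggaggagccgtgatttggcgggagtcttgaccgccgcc
ORC3 (chr6:87590035-87590134, plus strand): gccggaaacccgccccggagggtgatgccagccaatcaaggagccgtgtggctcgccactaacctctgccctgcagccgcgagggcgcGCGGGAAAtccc
ORC5 (chr7:104208014-104208113, minus strand): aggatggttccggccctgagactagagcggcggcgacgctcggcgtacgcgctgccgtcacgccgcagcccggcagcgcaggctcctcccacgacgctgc
E2F1 carried 2 matches on opposite strands, and MCM6 carried 4 in overlapping pairs, with 1 word of a pair on each strand. All 4 MCM2-7 genes with an entry held a match, against 1 of 6 origin recognition genes. A match was present in 4 of 8 members at least 2-fold lower under T-3764518 and in 16 of the other 30 (53.3%). Members with a match had a median log2 ratio of -0.75 under T-3764518 (n = 20), and those without had -0.68 (n = 18); in the SCD1-KO cells the medians were -0.30 and -0.32. A match is a description of letters in this window and not of a bound site.

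Other promoter elements were searched in the same window. The CHR element, searched as TTTGAA on both strands and known from genes of G2 and mitosis, occurred in 1 of 38 members (2.63%), in 10 of 15 genes of a list for G2 and mitosis (66.7%) and in 9.70% of tested genes. The E2F motif occurred in 1 of those 15 (6.67%). The CCAAT box, searched by the letters of its name on both strands, was found in 21 of 38 members (55.3%), in 12 of the 15 and in 36.7% of tested genes. The NRF-1 core, searched as GCATGCGC, was found in 3 members (7.89%) and in 5.40% of tested genes; in POLA2 it overlapped an E2F match.

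The origin recognition complex, which marks origins, was the role group with the median nearest 0 under T-3764518. Its 6 subunits had a median log2 ratio of -0.00063 under T-3764518 and 0.06 in the SCD1-KO cells. ORC1, the subunit that is made anew in each G1 in human cells, stood apart from the others. Its signal was 224 under T-3764518 and 214 in the SCD1-KO cells, against 434 with DMSO, which is 1.94-fold lower with the inhibitor and 2.03-fold lower with the knockout. The 2 perturbed arrays nearly coincided for ORC1 (log2 ratio of T-3764518 over SCD1-KO 0.07), and a single probe set measured it. ORC6, the smallest subunit, had signals of 944 under T-3764518, 1559 in the SCD1-KO cells and 1464 with DMSO, which is 1.55-fold lower under T-3764518 alone. ORC3 went the other way, with 1280 under T-3764518 and 1881 in SCD1-KO, against 1210 with DMSO, so that SCD1-KO cells were 1.56-fold higher than DMSO; its promoter match is shown above. ORC4 had 1005 under T-3764518 and 1021 in SCD1-KO, against 871 with DMSO, with the highest ratio of the group under T-3764518 (log2 0.21, against 0.23 in the SCD1-KO cells). ORC2 had 903 under T-3764518 and 802 in SCD1-KO, against 880 with DMSO, and ORC5 had 836 under T-3764518 and 870 in SCD1-KO, against 859 with DMSO. Their ratios were smaller than the disagreement between probe sets of like brightness. The kept probe sets of ORC2 differed in sign under T-3764518 and those of ORC5 in the SCD1-KO cells.

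The loading factors CDC6 and CDT1 diverged from each other in the same way on both perturbed arrays. CDC6, the ATPase that joins the origin recognition complex, had the highest ratio of all members under T-3764518. Its signals were 1622 under T-3764518 and 1549 in the SCD1-KO cells, against 1253 with DMSO, or 1.29-fold higher with the inhibitor and 1.24-fold higher with the knockout. CDT1, which brings the MCM ring and is destroyed once S phase begins, had 875 under T-3764518 and 881 in SCD1-KO, against 1259 with DMSO, or 1.44-fold lower with the inhibitor and 1.43-fold lower with the knockout. Both genes lay within 1.5-fold of DMSO. The medians of the origin recognition and loading groups under T-3764518 depended on scaling: with each array set to the same median signal, which put the median of all genes at 0.19, they were 0.28 and 0.20.

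All 6 subunits of the MCM2-7 helicase, the motor that unwinds DNA at the fork, had their lowest signal under T-3764518, an intermediate one in the SCD1-KO cells and the highest with DMSO. The median log2 ratio of the subunits was -1.10 under T-3764518 and -0.40 in the SCD1-KO cells. MCM2 had signals of 1005 under T-3764518 and 1733 in the SCD1-KO cells, against 3288 with DMSO, or 3.27-fold lower with the inhibitor and 1.90-fold lower with the knockout; it ranked 51 from the lowest of 12321 genes under T-3764518. MCM4 had 351.2 under T-3764518 and 699 in SCD1-KO, against 1068 with DMSO, or 3.04-fold lower with the inhibitor and 1.55-fold lower with the knockout. MCM4 had more probe sets than the other subunits, and its 4 kept probe sets spanned -1.89 to -1.31 under T-3764518 and -0.72 to -0.46 in the SCD1-KO cells. These probe sets read the same arrays and are not replicates of a condition. MCM5 had 497 under T-3764518 and 899 in SCD1-KO, against 1201 with DMSO, or 2.42-fold lower with the inhibitor and 1.34-fold lower with the knockout. The other three subunits, which sit in the same ring, had narrower ratios. MCM3 had 2244 under T-3764518 and 3377 in SCD1-KO, against 4234 with DMSO, MCM6 had 467 under T-3764518 and 675 in SCD1-KO, against 884 with DMSO, and MCM7 had 1933 under T-3764518 and 2655 in SCD1-KO, against 3352 with DMSO. Under T-3764518 MCM3 and MCM6 were 1.89-fold lower each and MCM7 was 1.73-fold lower, and in the SCD1-KO cells these subunits were 1.25-fold to 1.31-fold lower. Signals are geometric means over the kept probe sets and ratios are medians, so with 3 or more probe sets they can differ slightly.

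**Figure D2:**
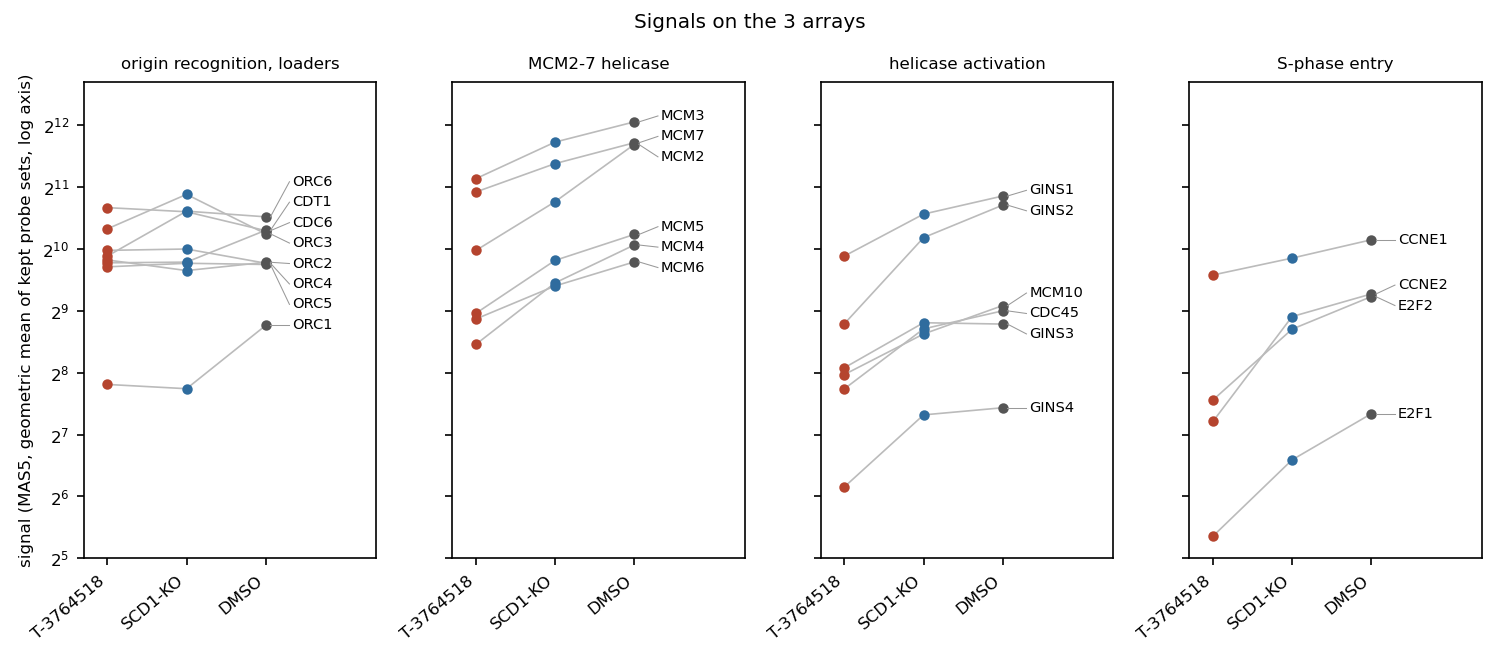
Signals (MAS5, log axis) under T-3764518, in the SCD1-KO cells and with DMSO for the licensing, helicase, helicase activation and S-phase entry genes, 1 point per array, each a geometric mean of the kept probe sets. All 6 MCM lines climb from left to right, whereas the lines of ORC2, ORC4 and ORC5 are nearly flat; heights of different genes depend on their probes and are not compared.

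The factors that turn the loaded ring into an active helicase had a median log2 ratio of -1.25 under T-3764518 and -0.29 in the SCD1-KO cells. Under T-3764518 this was below the MCM2-7 median, but with the filter at percentile 75 it was -0.97, against -1.09 for MCM2-7. GINS2 had a signal of 442 under T-3764518 and 1160 in the SCD1-KO cells, against 1668 with DMSO. That is 3.77-fold lower with the inhibitor and 1.44-fold lower with the knockout, and it ranked 23 from the lowest of all genes under T-3764518. Of its 3 probe sets 1 was kept, and the dim ones left out gave log2 ratios of 0.53 and -1.46 under T-3764518. CDC45, the partner of MCM2-7 and GINS in the active helicase, had 214 under T-3764518 and 418 in SCD1-KO, against 511 with DMSO, or 2.39-fold lower with the inhibitor and 1.22-fold lower with the knockout. MCM10, which takes part in starting the helicase, had 251 under T-3764518 and 394 in SCD1-KO, against 542 with DMSO, or 2.35-fold lower with the inhibitor and 1.25-fold lower with the knockout. By gene ratio these 3 genes were thus at least 2-fold lower under T-3764518 and within 1.5-fold of DMSO in the SCD1-KO cells. The kept probe sets of MCM10 crossed both limits, spanning -1.26 to -0.84 under T-3764518 and -0.75 to -0.31 in the SCD1-KO cells. GINS1 had 944 under T-3764518 and 1509 in SCD1-KO, against 1847 with DMSO, just inside 2-fold at 1.96-fold lower under T-3764518. GINS3 had 270 under T-3764518 and 447 in SCD1-KO, against 441 with DMSO, or 1.63-fold lower under T-3764518 and nearly level in the SCD1-KO cells, where its probe sets differed in sign (-0.28 and 0.32). GINS4 was dim, at 71.3 under T-3764518 and 160 in the SCD1-KO cells, against 173 with DMSO. With signals under the filter level raised to that level, GINS4 was at least 2.22-fold lower under T-3764518. The 4 GINS subunits form 1 complex, and all 4 were lower under T-3764518 than in the SCD1-KO cells.

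Among the polymerase and primase genes, PRIM1 and POLE2 were at least 1.5-fold lower on both perturbed arrays and POLE under T-3764518 alone. PRIM1, the catalytic primase subunit that lays down RNA primers, had signals of 1311 under T-3764518 and 1082 in the SCD1-KO cells, against 2178 with DMSO, or 1.66-fold lower with the inhibitor and 2.01-fold lower with the knockout. POLE2, a small subunit of the leading-strand polymerase, had 556 under T-3764518 and 586 in SCD1-KO, against 1056 with DMSO, or 1.90-fold lower with the inhibitor and 1.80-fold lower with the knockout. POLE, the catalytic subunit of the same polymerase, had 243 under T-3764518 and 452 in SCD1-KO, against 398 with DMSO, which is 1.64-fold lower under T-3764518 and a log2 ratio of 0.18 in the SCD1-KO cells. These subunits of 1 enzyme therefore had unlike SCD1-KO ratios, each from a single probe set. POLA1, the catalytic subunit of the polymerase that extends primers, had log2 ratios of -0.57 under T-3764518 and -0.10 in the SCD1-KO cells. POLD1, the catalytic subunit of the lagging-strand polymerase, had -0.20 under T-3764518 and 0.17 in SCD1-KO. POLA2, the accessory subunit of POLA1, was dim, with 98.9 under T-3764518 and 127 in SCD1-KO, against 94.1 with DMSO, and its probe sets differed in sign under T-3764518 (-0.49 and 0.63). The group medians were -0.64 under T-3764518 and 0.03 in the SCD1-KO cells.

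The sliding clamp, its loader and the enzymes that join Okazaki fragments were lower under T-3764518 for all 8 genes (RFC1 at 0.02 when arrays were set to the same median signal), with a median log2 ratio of -0.64, against -0.31 in the SCD1-KO cells. RFC2, a small subunit of the clamp loader, was the only one at least 2-fold lower. It had signals of 608 under T-3764518 and 845 in the SCD1-KO cells, against 1440 with DMSO, or 2.37-fold lower with the inhibitor and 1.70-fold lower with the knockout. RFC5, another loader subunit, had 1317 under T-3764518 and 1313 in SCD1-KO, against 2167 with DMSO, or 1.98-fold lower with the inhibitor and 1.74-fold lower with the knockout, although 1 of its probe sets gave 0.00 under T-3764518. RFC3 had 362 under T-3764518 and 358 in SCD1-KO, against 511 with DMSO, as means over its probe sets. By median ratio RFC3 was 1.64-fold lower with the inhibitor and 1.24-fold lower with the knockout, and its probe sets differed in sign under T-3764518. RFC4 had ratios of -0.43 under T-3764518 and -0.48 in the SCD1-KO cells, and RFC1, the large subunit and the highest of the group under T-3764518, had 1596 under T-3764518 and 1706 in SCD1-KO, against 1905 with DMSO. The 4 small loader subunits thus stayed below DMSO on both perturbed arrays. PCNA, the clamp itself, had another pattern. It had 6097 under T-3764518 and 10339 in the SCD1-KO cells, against 9092 with DMSO, or log2 ratios of -0.58 and 0.19. LIG1, the ligase that seals Okazaki fragments, had 513 under T-3764518 and 843 in SCD1-KO, against 757 with DMSO, also lower under T-3764518 and higher in the SCD1-KO cells. FEN1, the nuclease that trims the flaps before sealing, had 1530 under T-3764518 and 2161 in SCD1-KO, against 2672 with DMSO, or 1.75-fold lower with the inhibitor and 1.24-fold lower with the knockout.

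The 4 genes of deoxynucleotide synthesis were below DMSO on both perturbed arrays (TYMS in the SCD1-KO cells at 0.02 when arrays were set to the same median signal), with median log2 ratios of -0.85 under T-3764518 and -0.46 in the SCD1-KO cells. TK1, the thymidine salvage kinase whose promoter above holds no match, had signals of 1620 under T-3764518 and 2533 in the SCD1-KO cells, against 3575 with DMSO, or 2.21-fold lower with the inhibitor and 1.41-fold lower with the knockout. TYMS, which makes thymidylate, had 3672 under T-3764518 and 6273 in SCD1-KO, against 6810 with DMSO, or 1.85-fold lower with the inhibitor and 1.09-fold lower with the knockout. RRM2, the S-phase subunit of ribonucleotide reductase, had 4403 under T-3764518 and 4737 in SCD1-KO, against 7739 with DMSO, or 1.76-fold lower with the inhibitor and 1.63-fold lower with the knockout. The thymidine genes TK1 and TYMS thus lay nearer to DMSO in the SCD1-KO cells than under T-3764518, and RRM2 had like ratios on both arrays. RRM1, the large reductase subunit, had 2203 under T-3764518 and 2530 in SCD1-KO, against 3374 with DMSO, or 1.53-fold lower with the inhibitor and 1.33-fold lower with the knockout.

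The regulators of S-phase entry had the lowest group median, -1.82 under T-3764518 against -0.45 in the SCD1-KO cells. CCNE2, a cyclin that activates CDK2 at the G1/S boundary, had the lowest ratio of all members. Its signal was 148 under T-3764518 and 479 in the SCD1-KO cells, against 617 with DMSO, which is 4.17-fold lower with the inhibitor and 1.29-fold lower with the knockout; it ranked 12 from the lowest of all genes under T-3764518. CCNE1, its paralog, had 763 under T-3764518 and 922 in SCD1-KO, against 1132 with DMSO, or 1.48-fold lower with the inhibitor and 1.23-fold lower with the knockout. By their kept probe sets the cyclin E genes differed in the size of the ratio and not in its direction. CCNE1 had 1 kept probe set, and with no filter its log2 ratio was 0.18 under T-3764518 and -1.24 in the SCD1-KO cells. E2F2, an activator E2F, had 188 under T-3764518 and 416 in SCD1-KO, against 599 with DMSO, or 3.18-fold lower with the inhibitor and 1.44-fold lower with the knockout. E2F1, the other activator in the set, was dim, with 41.0 under T-3764518 and 96.4 in SCD1-KO, against 161 with DMSO. Because part of its signal lay under the filter level, E2F1 is given as at least 2.40-fold lower under T-3764518, as a median of its probe sets. Its probe sets gave -2.99 and -0.96 under T-3764518, which share a sign and differ widely in size. The E2F1 and E2F2 promoters shown above both hold a match, and its part in these ratios was not tested.

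Set directly against SCD1-KO cells, which leaves out the DMSO array, the T-3764518 array was lower for 37 of 42 members, against 55.2% of all genes. The median log2 ratio was -0.52, against -0.06 for all genes. At least 2-fold lower were CCNE2, GINS2, E2F1, GINS4 and E2F2, 5 of 42 against 4.52% of all genes tested. CCNE2 was 3.23-fold, GINS2 2.62-fold and E2F2 2.21-fold lower. GINS4 was at least 2.05-fold lower, and the bound for E2F1 was 1.43-fold. The group medians were -1.19 for S-phase entry, -0.85 for helicase activation, -0.69 for MCM2-7 and -0.44 for the clamp group, and -0.04 for origin recognition. PRIM1, ORC1, ORC2, CDC6 and RFC4 were the 5 members with a ratio above 0. By array, the geometric mean signal was lowest under T-3764518 for 32 members, in the SCD1-KO cells for 6 and with DMSO for 4. RFC3 and RFC5 were among those 6, although their median ratios of T-3764518 over SCD1-KO were below 0. Orders of the 3 arrays were not counted over all genes, so these counts have no background beside them. In 25 members the order was T-3764518 below SCD1-KO below DMSO, and in 7 members SCD1-KO cells exceeded DMSO while T-3764518 lay below it. PCNA, LIG1, POLE, POLD1, ORC6, GINS3 and ORC5 made up that last group, of which ORC5 and POLD1 lay above DMSO under T-3764518 when arrays were set to the same median signal.

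**Figure D3:**
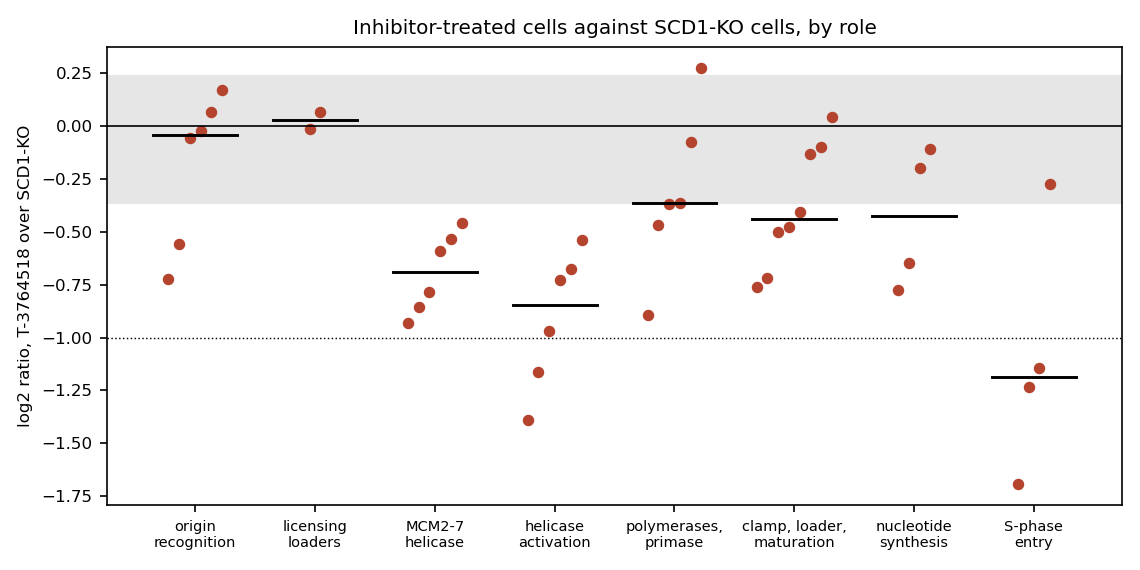
Log2 ratio of T-3764518 over SCD1-KO for each member, by role group, with black bars at group medians and dotted lines at 2-fold. The grey band holds quartiles 1 to 3 of all genes; helicase activation genes and all S-phase entry genes but CCNE1 lie below it, and origin recognition genes spread across it.

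Genes of the same pathway outside the set were counted next, beside the same shares of all genes at 2-fold (3.3% lower and 2.18% higher under T-3764518, 3.93% lower and 3.12% higher in the SCD1-KO cells). Of 34 other genes of licensing control and the fork, 8 were at least 2-fold lower under T-3764518 and 0 higher, with a median log2 ratio of -0.68, against 0 lower and a median of -0.27 in the SCD1-KO cells. The 8 were CLSPN, a checkpoint adaptor at the fork (109 under T-3764518 and 158 in the SCD1-KO cells, against 253 with DMSO), the nuclease DNA2, the RNase H2 subunits RNASEH2A and RNASEH2C, the histone chaperones CHAF1B and ASF1B, UHRF1, which guides maintenance of DNA methylation, and DSCC1, part of an alternative clamp loader. Their ratios were 2.03-fold to 2.42-fold lower, apart from that of RNASEH2C, which was dim under T-3764518. With signals raised to the filter level the median for RNASEH2C was 2.21-fold lower, and its 2 probe sets gave log2 ratios of -3.15 and -0.78. RMI2, which acts on recombination intermediates, was lowest in the SCD1-KO cells (-0.99). The highest were POLD4, a small polymerase subunit, under T-3764518 (0.49) and MCM9, an MCM relative, in the SCD1-KO cells (0.53). Of 17 other nucleotide genes 16 were measured, with medians of -0.29 under T-3764518 and -0.16 in the SCD1-KO cells. DCK, a salvage kinase, was 2.08-fold lower under T-3764518, and DHODH, of pyrimidine synthesis, was 2.40-fold lower in the SCD1-KO cells.

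The upstream regulators of G1 and S phase lay on both sides of DMSO. Of 29 listed, 27 were measured, and the median log2 ratio was -0.15 under T-3764518 and -0.20 in the SCD1-KO cells. CDKN2B, which encodes the CDK4 and CDK6 inhibitor p15, had the highest ratio, with signals of 1128 under T-3764518 and 789 in the SCD1-KO cells, against 252 with DMSO, or 4.48-fold higher with the inhibitor and 3.14-fold higher with the knockout. CDKN1A, which encodes the CDK inhibitor p21, had 7660 under T-3764518 and 9532 in SCD1-KO, against 4163 with DMSO, or 1.84-fold higher with the inhibitor and 2.29-fold higher with the knockout. Both inhibitors were thus above DMSO on both perturbed arrays. The other measured CDK inhibitor genes of the list lay within 1.5-fold of DMSO, and none was above it on both arrays. CDKN1B had log2 ratios of 0.14 under T-3764518 and -0.46 in the SCD1-KO cells, and CDKN2A had 0.41 and -0.22. CDKN1C had -0.23 under T-3764518 and -0.22 in the SCD1-KO cells, and CDKN2D had -0.19 and 0.17. At least 2-fold lower under T-3764518 were SKP2, the F-box protein that targets p27 (268 under T-3764518 and 442 in SCD1-KO, against 564 with DMSO), and CDC25A, the phosphatase that activates CDK2 (at least 1.67-fold with signals raised to the filter level). E2F8, a repressor E2F, was 2.39-fold lower in the SCD1-KO cells. Genes of G2 and mitosis were set beside the members as genes of the later cell cycle. None of the 20 was 2-fold changed on either perturbed array, which is near the all-gene shares given above. The medians were -0.36 under T-3764518 and -0.29 in the SCD1-KO cells. Under T-3764518 19 of the 20 lay below 0, against 37 of the 42 members and 59.0% of all genes. In the SCD1-KO cells 17 did, against 31 members and 51.1%. A lower signal was thus not particular to the members. At least 1.5-fold lower were 4 under T-3764518 and 3 in the SCD1-KO cells, against 12.3% and 11.4% of all genes. The 20 genes spanned -0.71 for the topoisomerase TOP2A to 0.07 for CDC20 under T-3764518, a narrower range than the members had. Directly between T-3764518 and SCD1-KO their median was -0.02, against -0.52 for the members.

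**Figure D4:**
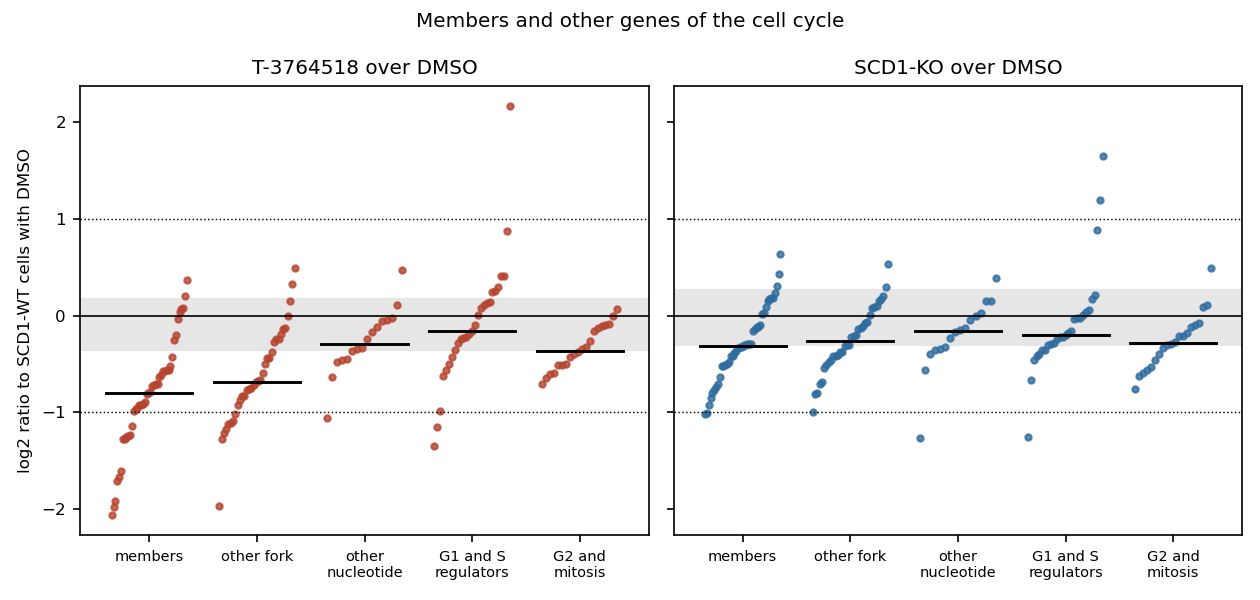
Log2 ratios of the members and of 4 lists of other genes under T-3764518 and in the SCD1-KO cells, relative to DMSO, 1 point per gene. Black bars are medians, the grey band holds quartiles 1 to 3 of all genes and dotted lines mark 2-fold; under T-3764518 the members (-0.80) and the fork genes (-0.68) lie lowest.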

How the data were processed

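RNA of 3 HCT-116 cultures was measured on Affymetrix U133 Plus 2.0 arrays. The authors deposited 1 signal intensity per probe set on a linear scale, made with MAS5 by the submitters' processing notes, which give no version. MAS5 scales each array to a common trimmed mean and leaves dim signals noisy, which widens their log2 ratios. Probe sets with 1 gene symbol in the platform annotation (41091 of 54675) were used if their mean log2 signal reached percentile 50 of all probe sets. Log2 ratios of the kept probe sets were reduced to 1 median per gene. Members at least 1.5-fold from DMSO, the extremes of each role group and members whose probe sets differ in sign were named in full. Members and lists were chosen with earlier results of these data known. With 1 array per condition there was no test, replicate check or p-value, and the number of arrays limits the precision. Promoters were RefSeq sequences of GRCh38.p14, matched by symbol. Alternatives covered scaling, filter, low signals, probe set summary and kind, and fold threshold. The 2-fold calling was checked on simulated arrays with known changes. Some genes of the lists were not analysed here. Python 3.11.15, numpy 2.4.6, pandas 2.3.3, statsmodels 0.14.6 and matplotlib 3.10.9 were used.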

Additional observations from a re-analysis of the deposited data

How the results depend on the processing

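The set's median stayed below 0 under every alternative run on both perturbed arrays; group medians that changed sign under some alternative, none of them 2-fold, were those of origin recognition and loaders on both, and of polymerases in the SCD1-KO cells. Under T-3764518, 12 of 12 members remained at least 2-fold lower under quantile normalization, lowess correction, no filter, raised or offset low signals and the mean of probe sets. With no filter 14.5% of all genes were at least 2-fold lower, against 3.3% in the main run, so the calls there stand against a higher background. In the other settings named the share was 1.98% to 3.27%. Scaling the arrays to 1 median, which put the all-gene median at 0.19 under T-3764518 and 0.13 in the SCD1-KO cells, left 6 and 0 members at least 2-fold lower and medians of -0.52 and -0.18; relative to all genes the members stayed at -0.71 and -0.31. MCM5, MCM10, CDC45, GINS4, RFC2 and TK1, and ORC1 and PRIM1 in the SCD1-KO cells, were the calls lost. With that scaling 1.32% of all genes were at least 2-fold lower under T-3764518 and 2.96% in the SCD1-KO cells. Role medians under T-3764518 then were 0.28 for origin recognition, 0.20 for loaders, -0.82 for MCM2-7, -0.97 for helicase activation, -0.36 for polymerases, -0.37 for the clamp group, -0.57 for nucleotide synthesis and -1.54 for S-phase entry, and in the SCD1-KO cells 0.20 for origin recognition, -0.26 for MCM2-7, -0.17 for the clamp group and -0.32 for nucleotide synthesis. The filter at percentile 75, which left 34 members, gave 7 lower under T-3764518 (0.87% of all genes) and 1 in the SCD1-KO cells (2.17%). Its medians were -0.97 for helicase activation and -1.23 for S-phase entry under T-3764518, and -0.47 for polymerases in the SCD1-KO cells. At 1.5-fold, 28 members were lower under T-3764518 (12.3% of all genes), and in the SCD1-KO cells 9 were lower (11.4%) and 1 higher (9.95%). At 3-fold, 6 were lower under T-3764518 and 0 in the SCD1-KO cells, and the share of all genes was not counted. The brightest probe set gave medians of -0.73 for the set, -0.71 for nucleotide synthesis and -1.31 for S-phase entry under T-3764518, and lost MCM10 and E2F1. Without probe sets marked _s_at or _x_at, which may also bind related transcripts, 31 members were left, with medians of -0.73 for the set, 0.34 for loaders and -0.53 for the clamp group under T-3764518, and -0.37, 0.27 and -0.55 in the SCD1-KO cells. MCM2, CDC45 and GINS2, each with a single kept probe set, dropped out there. The 9 called members still measured stayed at least 2-fold lower under T-3764518, against 4.01% of all genes. Raising low signals to the filter level gave -1.46 for S-phase entry under T-3764518. An offset gave -1.57 there and 0 members lower in the SCD1-KO cells, against 3.16% of all genes. E2F1, GINS4 and POLA2 had signals near the filter level, which limits the precision of their ratios.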
